A study of Mus musculus with 20 samples.

Results

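The 4 genes described here, Cyp2b9, Cyp2b10, Cyp2b13 and Cyp2b23, belong to the mouse Cyp2b family of cytochrome P450 enzymes. They were taken by symbol, 1 row each, from the 53599 rows that both count tables share, among which 7 rows carried a Cyp2b symbol. Liver RNA came from mice without PPARα, the receptor that turns fatty acids into a signal for their own oxidation (KO), and from mice with the human form of PPARα (hPPARa). From weaning, mice of both sexes drank water that held 0.5% sucrose and either perfluorooctanoic acid (PFOA), a fluorinated surfactant that persists in the body, at a level read here as 8 µM, or nothing more (vehicle), for 6 to 7 weeks. All groups ate a custom diet with 51.8% of its energy from carbohydrate, 33.5% from fat and 14.7% from protein. The 20 libraries fell into 8 groups. These were 3 KO females on PFOA and 1 on vehicle, 3 KO males on PFOA and 3 on vehicle, 2 hPPARa females on PFOA and 3 on vehicle, and 3 hPPARa males on PFOA and 2 on vehicle. The sources used here give neither the promoter of the human transgene, nor the state of the mouse gene in hPPARa mice, nor ages. No label ties each library to a mouse of its own, and p-values therefore reflect the spread among libraries, part of which may be technical. KO females had a single vehicle library, whose spread was taken to be like that of the other groups.

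CAR (constitutive androstane receptor, gene Nr1i3) is a nuclear receptor that moves into the hepatocyte nucleus after exposure to phenobarbital and many other foreign chemicals. There it turns on enzymes and transporters that clear such compounds, and Cyp2b10 is its classical target in mouse liver, used as a readout of its activity. Cyp2b9 and Cyp2b13 are close relatives that are known for another pattern: they are high in female and low in male mouse liver, under the control of the sex-specific rhythm of growth hormone. Cyp2b23 is a lesser-studied member of the family, for which no role is stated here.

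The promoters of the 4 genes are shown because Cyp2b9 and Cyp2b13, whose levels were most alike among the members, also have nearly the same promoter sequence. Each window runs 250 bases before to 50 bases after the annotated start on chromosome 7, as given by RefSeq for GRCm38.p6. The counts were made on another build, GRCm39. The Cyp2b9 window is chr7:26173159-26173458 on the plus strand, and that of Cyp2b13 is chr7:26061245-26061544 on the plus strand. The Cyp2b10 window is chr7:25897408-25897707 on the plus strand, and that of Cyp2b23 is chr7:26686381-26686680 on the minus strand. In the first pair capitals mark the 2 bases that differ between them. In the second pair capitals mark the 35 aligned positions where Cyp2b10 and Cyp2b23 share a base and Cyp2b9 and Cyp2b13 share another.
Cyp2b9: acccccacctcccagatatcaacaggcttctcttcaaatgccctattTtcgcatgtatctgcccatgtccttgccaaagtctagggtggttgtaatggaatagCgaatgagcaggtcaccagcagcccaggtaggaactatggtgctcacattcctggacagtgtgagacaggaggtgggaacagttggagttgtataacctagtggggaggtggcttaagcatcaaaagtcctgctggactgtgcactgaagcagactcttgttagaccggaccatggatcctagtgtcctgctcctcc
Cyp2b13: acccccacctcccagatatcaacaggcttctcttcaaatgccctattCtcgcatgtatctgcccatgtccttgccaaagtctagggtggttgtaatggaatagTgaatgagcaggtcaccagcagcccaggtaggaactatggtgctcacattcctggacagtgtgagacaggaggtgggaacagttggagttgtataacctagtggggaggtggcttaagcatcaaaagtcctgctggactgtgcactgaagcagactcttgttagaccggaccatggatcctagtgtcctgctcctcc
Cyp2b10: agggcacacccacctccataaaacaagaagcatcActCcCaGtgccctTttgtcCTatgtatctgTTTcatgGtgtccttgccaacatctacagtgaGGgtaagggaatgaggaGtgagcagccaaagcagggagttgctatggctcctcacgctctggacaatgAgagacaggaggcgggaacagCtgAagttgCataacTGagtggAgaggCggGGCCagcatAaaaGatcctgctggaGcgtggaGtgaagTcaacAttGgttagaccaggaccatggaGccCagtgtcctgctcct
Cyp2b23: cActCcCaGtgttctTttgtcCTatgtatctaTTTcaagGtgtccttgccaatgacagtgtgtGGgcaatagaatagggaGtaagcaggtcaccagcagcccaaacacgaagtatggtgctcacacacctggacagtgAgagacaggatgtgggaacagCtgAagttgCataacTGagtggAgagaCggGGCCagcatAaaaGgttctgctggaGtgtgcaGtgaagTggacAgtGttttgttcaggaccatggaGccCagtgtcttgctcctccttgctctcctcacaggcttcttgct

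The Cyp2b9 and Cyp2b13 windows were 99.3% identical over 300 aligned bases. Counted from the 5′ end of the window, with the Cyp2b9 base first, the differences were T48C and C104T. The Cyp2b10 and Cyp2b23 windows were 85.1% identical over 261 aligned bases. Across the pairs, Cyp2b9 was 77.2% identical to Cyp2b10 over 289 aligned bases and 77.4% identical to Cyp2b23 over 274. The windows were searched on both strands for TTCNNNGAA, the motif of the growth hormone-activated factor STAT5. It was in none of the 4 and in 8.3% of 32851 promoter windows. AGGTCA, the half-site of nuclear receptors, occurred once each in Cyp2b9, Cyp2b13 and Cyp2b23 and not in Cyp2b10, against 16.3% of all windows. Direct repeats of that half-site with 4 bases between them, which overlap the half-site search, were in none of the 4 and in 0.0152% of all windows. No match says only that these letters are not in these windows.

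The family's transcripts resemble each other, and neither read length nor strand setting is stated, so a single value of any member is uncertain to the extent that reads were shared or lost in the authors' counting. In GENCODE transcripts, Cyp2b9 and Cyp2b13 were 91.9% identical and Cyp2b9 and Cyp2b10 87.6% identical over aligned bases. Of all stretches of 100 bases, 1.18% of those in Cyp2b9 occurred unchanged in Cyp2b13, 0.239% of those in Cyp2b23 occurred in Cyp2b19, and none of those in Cyp2b10 occurred in any other member. Of all stretches of 50 bases, 10.8% in Cyp2b9, 20% in Cyp2b13, 8.57% in Cyp2b10 and 4.44% in Cyp2b23 occurred in another member.

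Total counts ran from 14973673 to 17953860 per library. Ppara, the gene that separates the genotypes, had 158 to 430 counts in KO libraries and 245 to 657 in hPPARa libraries; these overlap, and counts over the whole gene do not show whether the deleted part is missing. All 8 hepatocyte markers had counts in every library; with PFOA, 1 of them fell in KO and 5 in hPPARa (medians −0.28 and −0.57), and none rose. Of 5 bile duct markers, 5 fell in KO and 0 in hPPARa. Within a sex, 4 fell in KO females, with their 1 vehicle library, 0 in KO males, 1 in hPPARa females and 0 in hPPARa males. Over all genes, 13.8% in KO and 22.6% in hPPARa changed in either direction at an adjusted p under 0.05 in edgeR. Within a sex these shares were 5.31% in KO females, 9.1% in KO males, 18.4% in hPPARa females and 8.2% in hPPARa males. Nothing is read from the 1 hepatocyte marker in KO or the 1 bile duct marker in hPPARa females. Summed markers of pancreatic acinar cells were 7.84 to 15.2 CPM in PFOA libraries and 16.0 to 35.5 CPM in vehicle libraries. CPM is the library's counts scaled to a common total, with TMM factors. Only 2 of the 6 acinar markers had a count in every library. In females on PFOA, 4 of the 6 had no count in KO and 4 had none in hPPARa, so the sum rests on few genes. Summed bile duct markers reached 186 CPM in the KO female vehicle library against 15.7 to 67.2 CPM elsewhere. The part of these markers in the results was not tested. Transcripts of the other sex were highest in 3 KO libraries. KO male PFOA replicate 2 had 30.8 CPM of the X-inactivation transcript Xist, against 0.759 and 1.40 CPM in the other 2 libraries of its group and 425 to 498 CPM in KO females. KO female PFOA replicate 2 and the KO female vehicle library had 4.06 and 1.86 CPM of the Y-linked Ddx3y, against 37.1 to 50 CPM in KO males. The other libraries held less, with Xist at up to 4.40 CPM in males and Ddx3y at up to 0.415 CPM in females. In bulk liver, fewer cells of a type and less RNA per cell cannot be told apart.

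Cyp2b10 rose with PFOA in both sexes and both genotypes, by count ratios of 300 to 1490, and per kb of exon it was the most abundant of the 4 transcripts in every PFOA library. In KO females it had 2069, 2015 and 1777 CPM on PFOA and 2.17 CPM in the vehicle library. In KO males it had 1524, 2066 and 1643 CPM on PFOA, against 2.60, 1.89 and 3.66 CPM on vehicle. Every PFOA library of either KO sex was far above every vehicle library. In hPPARa females it had 1170 and 944 CPM on PFOA, against 1.16, 4.26 and 5.39 CPM on vehicle. In hPPARa males it had 859, 1072 and 872 CPM on PFOA, against 0.585 and 0.671 CPM on vehicle. Here too all PFOA libraries lay far above all vehicle libraries, and the hPPARa PFOA libraries lay below those of KO mice.

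With exposure and sex as additive terms, the quasi-likelihood test of edgeR (p-values adjusted over all genes by Benjamini and Hochberg's method) gave Cyp2b10 a log2 fold change of 9.47 ± 0.24 (SE) in KO (adjusted p = 4.74e-11) and 8.99 ± 0.59 in hPPARa (adjusted p = 2.66e-05). A call means an adjusted p under 0.05, and 13.8% of 15334 genes tested in KO and 22.6% of 14400 in hPPARa were called. Within each sex, from a model of the 4 groups of a genotype, the log2 fold change was 9.80 ± 0.44 in KO females (adjusted p = 3.35e-07), 9.32 ± 0.25 in KO males (8.2e-10), 8.20 ± 0.47 in hPPARa females (2.18e-05) and 10.52 ± 0.66 in hPPARa males (4.55e-05). In those comparisons 5.31%, 9.1%, 18.4% and 8.2% of genes were called. As ratios of summed counts, with exact 95% intervals that cover counting error only, these were 900 (666 to 1250), 635 (533 to 763), 300 (258 to 351) and 1490 (953 to 2470). The calls held under every alternative tried. Between the sexes on vehicle, female minus male, Cyp2b10 differed by −0.31 ± 0.33 in KO (adjusted p = 0.639) and by 2.49 ± 0.65 in hPPARa (0.1), and on PFOA by 0.16 ± 0.17 in KO (0.769) and 0.17 ± 0.37 in hPPARa (0.881). The PFOA effect differed between females and males by 0.47 ± 0.37 in KO (adjusted p = 0.697) and by −2.33 ± 0.76 in hPPARa (0.361), on the log2 scale, female minus male. The hPPARa difference passed the threshold without hPPARa female vehicle replicate 1 (−2.76, adjusted p = 0.00998), the library with the lowest Cyp2b10 of its group. Without it, the vehicle difference in hPPARa passed too (2.92, adjusted p = 0.000293), as it did in DESeq2 (2.51, 0.00436).

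**Figure D1:**
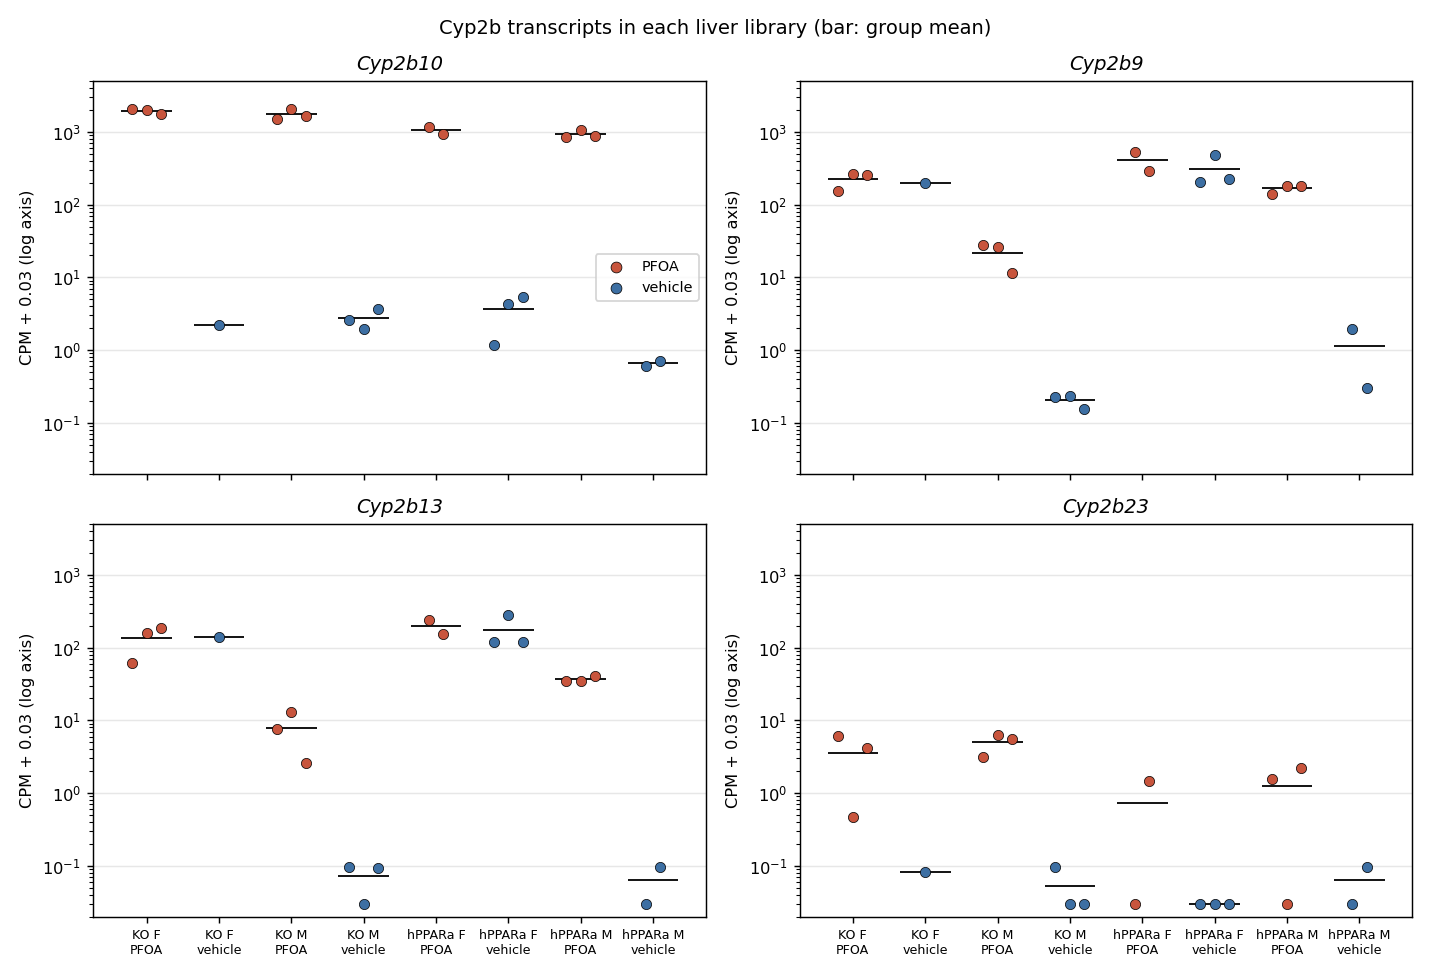
Level of each Cyp2b transcript in every liver library, in CPM on a log axis after adding 0.03, with PFOA in red, vehicle in blue and a bar at the group mean. Cyp2b10 separates PFOA from vehicle in all 4 pairs of groups, Cyp2b9 and Cyp2b13 do so in males only, and Cyp2b23 stays below 7 CPM with several PFOA libraries at or near 0.

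Cyp2b9 was a female transcript on vehicle, and PFOA brought it up in males without a change past the threshold in females. In KO females it had 153, 266 and 252 CPM on PFOA and 196 CPM in the vehicle library. In KO males it had 27.4, 26.1 and 11.4 CPM on PFOA, against 0.2, 0.203 and 0.126 CPM on vehicle. The vehicle value of KO females lay within their PFOA range, whereas every PFOA value in KO males was far above every vehicle value. In hPPARa females it had 536 and 293 CPM on PFOA, against 202, 486 and 226 CPM on vehicle. In hPPARa males it had 141, 180 and 181 CPM on PFOA, against 1.95 and 0.268 CPM on vehicle. The hPPARa female groups overlapped and the hPPARa male groups did not.

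Cyp2b9 rose in males, with log2 fold changes of 6.90 ± 0.60 in KO (adjusted p = 0.000577) and 7.22 ± 0.81 in hPPARa (0.00225). The hPPARa value was 9.24 without vehicle replicate 1, which held 30 of the 34 vehicle counts, and 6.44 without vehicle replicate 2; both passed. As count ratios the rises were 124 (62.6 to 287) in KO males and 149 (107 to 216) in hPPARa males. In females the log2 fold change was 0.18 ± 0.46 in KO (adjusted p = 0.881) and 0.44 ± 0.51 in hPPARa (0.60). The rise in KO males held at 6.74 (adjusted p = 0.00353) without the 3 KO libraries with the most transcripts of the other sex. With the sexes in 1 additive model, neither genotype passed, at 2.39 in KO (adjusted p = 0.183) and 3.15 ± 1.65 in hPPARa (0.217). In KO that value was 6.89 without the single female vehicle library (adjusted p = 0.000548), a fit that no longer holds a female vehicle library.

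The sex difference in Cyp2b9 was smaller on PFOA than on vehicle by nearly the same amount in both genotypes, and whether this passed the threshold depended on the setting. On vehicle, females exceeded males by 10.08 ± 0.62 on the log2 scale in KO (adjusted p = 0.000178) and by 8.08 ± 0.83 in hPPARa (0.00384), where 4.4% and 2.63% of genes were called. On PFOA the difference was 3.36 ± 0.36 in KO (adjusted p = 0.00901) and 1.30 ± 0.51 in hPPARa (0.305), where 0.724% and 1.33% of genes were called. The difference of the PFOA effect between the sexes, female minus male, was −6.72 ± 0.78 in KO (adjusted p = 0.0346; 0.241% of genes called) and −6.78 ± 0.96 in hPPARa (0.0898; 0.104% called). The KO call was lost without any one of 5 libraries, KO female PFOA replicate 3, KO male PFOA replicate 2 and each KO male vehicle library, at −6.52 to −6.82 (adjusted p = 0.0527 to 0.088). The hPPARa difference passed without hPPARa female vehicle replicate 2 (−6.27, adjusted p = 0.0356). With a replicate block the KO call was lost (−6.71, adjusted p = 0.0909), and in DESeq2 the hPPARa difference passed (−6.79, 1.26e-07).

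Cyp2b13 had the same pattern as Cyp2b9, at a lower level per kb of exon. In KO females it had 61.7, 157 and 186 CPM on PFOA and 139 CPM in the vehicle library. In KO males it had 7.67, 13 and 2.57 CPM on PFOA, against 0.0668, 0 and 0.0631 CPM on vehicle, the last being 2 counts in 3 libraries. In females the vehicle value again lay within the PFOA range, and in males the groups stood apart. In hPPARa females it had 237 and 154 CPM on PFOA, against 121, 282 and 119 CPM on vehicle. In hPPARa males it had 34.2, 34.9 and 40.7 CPM on PFOA, against 0 and 0.0671 CPM on vehicle, which was 1 count in 2 libraries. The hPPARa groups overlapped in females and not in males.

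The rise of Cyp2b13 in males had a log2 fold change of 9.81 ± 0.96 in hPPARa (adjusted p = 0.000702) and 7.25 ± 1.44 in KO (0.0281). With so few vehicle counts the fitted folds depend on the small number that the fit adds, and the count ratios were 176 (48.3 to 1460) in KO males and 1110 (199 to 43900) in hPPARa males. The KO call was lost without PFOA replicate 1, PFOA replicate 2 or any 1 of the 3 vehicle libraries (6.65 to 7.60, adjusted p = 0.0582 to 0.0891), and at 7.24 with a replicate block (0.0546). It was also lost, at 6.65 (adjusted p = 0.0921), without the 3 KO libraries with the most transcripts of the other sex. The hPPARa value was 8.93 without vehicle replicate 1 and 12.23 without vehicle replicate 2, and both passed. In females the log2 fold change was −0.06 in KO (adjusted p = 0.978) and 0.16 ± 0.38 in hPPARa (0.809). The hPPARa female value passed, at 0.69, without vehicle replicate 2 (adjusted p = 0.0329), the library with the highest Cyp2b9 and Cyp2b13 of its group. With both sexes in 1 additive model, Cyp2b13 passed in neither genotype, at 1.62 ± 0.99 in KO (adjusted p = 0.328) and 2.23 ± 1.34 in hPPARa (0.277). The KO value was 7.24 without the single female vehicle library (adjusted p = 0.0255), a fit that no longer holds a female vehicle library.

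Females on vehicle exceeded males in Cyp2b13 by 11.43 ± 1.27 on the log2 scale in KO (adjusted p = 0.0057) and by 12.06 ± 0.91 in hPPARa (0.000581). On PFOA the difference was 4.12 ± 0.65 in KO (adjusted p = 0.0571) and 2.41 ± 0.39 in hPPARa (0.0325). The last call was lost without any one of its 5 libraries (2.08 to 2.69, adjusted p = 0.0788 to 0.176). The PFOA effect differed between the sexes, female minus male, by −9.66 ± 1.12 in hPPARa (adjusted p = 0.0313) and by −7.31 ± 1.77 in KO (0.232). The hPPARa call was lost without either female PFOA library, male PFOA replicate 1 or 3, or either male vehicle library (−8.77 to −12.06, adjusted p = 0.064 to 0.184), and with a replicate block (−9.74, 0.114). Since reads of the pair could have been exchanged, Cyp2b9 and Cyp2b13 were also summed, a choice made after the data were seen. The sum gave −6.95 ± 0.91 in KO (adjusted p = 0.0494) and −7.12 ± 0.91 in hPPARa (0.0594).

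**Figure D2:**
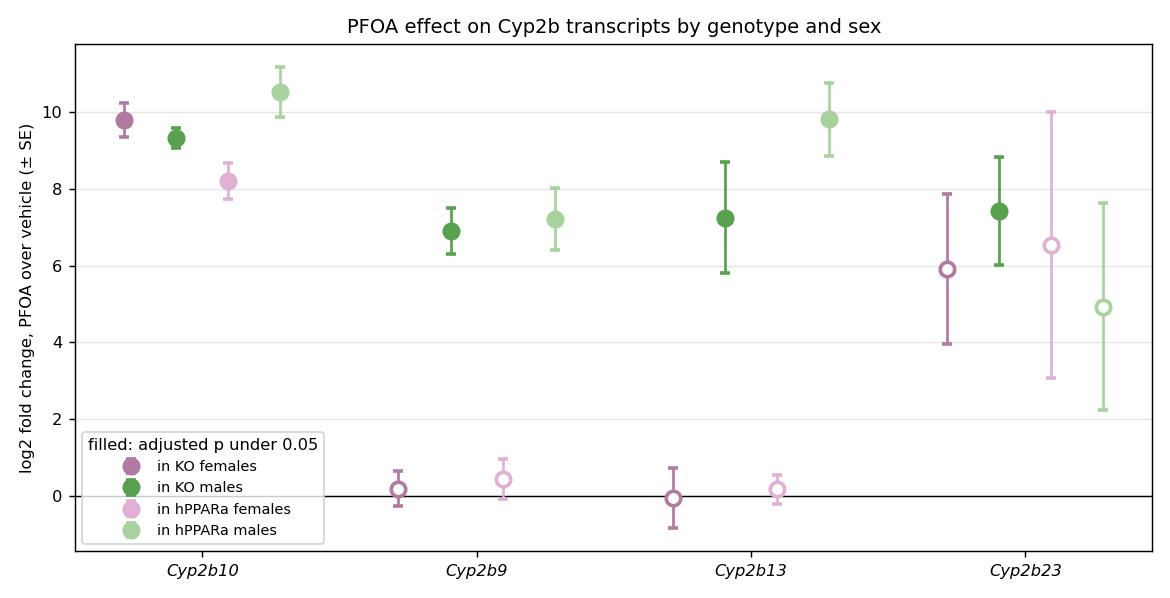
Fitted log2 fold change of each Cyp2b transcript on PFOA over vehicle, with its SE, in KO and hPPARa females and males; filled points passed an adjusted p of 0.05. Cyp2b10 is filled in all 4 comparisons, Cyp2b9 and Cyp2b13 are filled in males and near 0 in females, and Cyp2b23 has SEs of 1.41 or more.

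Cyp2b23 was found mainly on PFOA, at a few CPM, and it was missing from some PFOA libraries. It had 115, 8 and 73 counts in KO females on PFOA and 1 in the vehicle library. It had 56, 106 and 93 counts in KO males on PFOA, against 1, 0 and 0 on vehicle. In both KO sexes all PFOA libraries were above all vehicle libraries, but KO female PFOA replicate 2 was only just so. It had 0 and 25 counts in hPPARa females on PFOA, against 0 in each of 3 vehicle libraries. It had 25, 0 and 36 counts in hPPARa males on PFOA, against 0 and 1 on vehicle. The hPPARa groups overlapped in both sexes because of the PFOA libraries with none.

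The additive fits called Cyp2b23 in KO (log2 fold change 6.89 ± 1.05, adjusted p = 0.0028) and in hPPARa (5.48 ± 1.62, 0.0368). The KO call held under every alternative tried. The hPPARa call was lost in 12 of 16 alternatives, among them without female PFOA replicate 2, male PFOA replicate 1 or 3 or any 1 of the 5 vehicle libraries (4.55 to 6.79, adjusted p = 0.0608 to 0.236), without the filter on low counts (0.084) and in DESeq2 (0.105). Within a sex it passed in KO males (7.42 ± 1.41, adjusted p = 0.017), but not without any one of the 3 vehicle libraries (6.93 to 9.43, adjusted p = 0.0683 to 0.0914). It did not pass in KO females (5.91, adjusted p = 0.142), where it did without PFOA replicate 2 (6.43, 0.00303), nor in hPPARa males (4.93, 0.378). As count ratios the changes were 69.2 (12.3 to 2750) in KO females, 225 (40.1 to 8930) in KO males and 37.5 (6.49 to 1510) in hPPARa males. In hPPARa females, where vehicle had no count, the level was at least 11.1-fold higher on PFOA, taking a floor of 3 counts over the vehicle group. All 25 PFOA counts there came from replicate 2: the fitted value was 6.53 (adjusted p = 0.252) and was 0 without that library (adjusted p = 1).

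The PFOA libraries low in Cyp2b23 were not low in Cyp2b10. KO female PFOA replicate 2 had 8 Cyp2b23 counts and 2015 CPM of Cyp2b10, the middle value of its group. Replicate 1 of hPPARa females and replicate 2 of hPPARa males, both on PFOA and both without a Cyp2b23 count, had the highest Cyp2b10 of their groups, at 1170 and 1072 CPM. Cyp2b19, the neighbour of Cyp2b23 that is known from skin, had 0, 2 and 0 counts in these 3 libraries and 4 to 21 counts in the other 8 PFOA libraries. Vehicle libraries held 0 to 2 counts of Cyp2b19. The pseudogene Cyp2b27-ps had 0 counts in KO males on PFOA and in males on vehicle, and 1 to 10 counts in every other library; Cyp2b26-ps had at most 2 counts in any library.

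Ordered by group mean, Cyp2b10 ran from KO females and KO males on PFOA through hPPARa females and hPPARa males on PFOA to hPPARa females, KO males, KO females and hPPARa males on vehicle. The KO groups on PFOA overlapped with each other, as did the hPPARa groups on PFOA, and hPPARa females, KO males and KO females on vehicle each with the next of these, while hPPARa males on vehicle stood apart below them. Cyp2b9 ran from hPPARa females on PFOA and on vehicle through KO females on PFOA and on vehicle, these 4 overlapping with their neighbours, to hPPARa males and KO males on PFOA and then hPPARa males and KO males on vehicle, each apart from the next. Cyp2b13 had the same order, except that the KO female groups changed places, and so did the male vehicle groups, which overlapped. For Cyp2b23 each group overlapped with the next. These orders compare neighbours only. Further apart, Cyp2b9 in hPPARa males on PFOA (141 to 181 CPM) overlapped with that in KO females on PFOA (153 to 266 CPM).

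The genotypes differed in the level that Cyp2b9 reached in males on PFOA. Its mean was 21.6 ± 8.9 CPM in KO males (SD, n = 3), against 168 ± 22.9 CPM in hPPARa males (SD, n = 3), with no overlap. This male comparison was chosen after the data were seen, and 7.6% of 15811 genes were called in it. The log2 difference, KO minus hPPARa, was −2.95 ± 0.46 (adjusted p = 0.00172), a call that held in 11 of 11 alternatives. Cyp2b13 averaged 7.74 ± 5.2 CPM in KO males on PFOA and 36.6 ± 3.56 CPM in hPPARa males (SD, n = 3 each), a log2 difference of −2.24 ± 0.54 (adjusted p = 0.0253). That call was lost without KO male PFOA replicate 1 or 3 or any 1 of the 3 hPPARa male PFOA libraries (−1.83 to −2.29, adjusted p = 0.0506 to 0.0788). Cyp2b10 went the other way, at 1740 ± 285 CPM in KO males and 934 ± 119 CPM in hPPARa males on PFOA, with a log2 difference of 0.90 ± 0.29 that missed the threshold (adjusted p = 0.0707) and passed in DESeq2 (0.013).

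Summed markers of Kupffer cells, the liver's macrophages, were 160 to 250 CPM in these KO males and 77.7 to 109 CPM in these hPPARa males, with 4 of 6 markers called higher; their part in the result was not tested. A larger fold change in 1 genotype was not shown. On vehicle, Cyp2b9 had 8 counts over 3 libraries in KO males, against 34 counts over 2 in hPPARa males, of which 30 were in replicate 1; this difference was not tested. The PFOA effect on Cyp2b9 in males, KO minus hPPARa, was −0.33 ± 1.76 (adjusted p = 0.993; 0.152% of genes called). For Cyp2b13 it was −2.59 ± 4.77 (adjusted p = 0.95) and for Cyp2b10 −1.21 ± 0.65 (0.714). In females on PFOA (7.48% called) the KO minus hPPARa differences were −0.89 ± 0.47 for Cyp2b9, −0.54 ± 0.54 for Cyp2b13 and 0.89 ± 0.33 for Cyp2b10 (adjusted p = 0.293, 0.626 and 0.12), and the last passed in DESeq2 (0.0386). The female PFOA effect on Cyp2b10 differed by 1.6 ± 0.63 between genotypes (adjusted p = 0.229; 0.829% called), and by 2.03 without hPPARa female vehicle replicate 1 (0.0197).

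Over both sexes, none of the 4 members was called for PFOA by genotype (1.17% of genes called), for KO against hPPARa on vehicle (3.77%) or for KO against hPPARa on PFOA (14.9%). PFOA by genotype was 0.46 ± 0.57 for Cyp2b10 and −0.69 ± 2.05 for Cyp2b9 (adjusted p = 0.778 and 0.92). KO minus hPPARa on PFOA was 2.17 ± 0.71 for Cyp2b23 (adjusted p = 0.0523), which passed without KO female PFOA replicate 2 (2.44, 0.0164), hPPARa female PFOA replicate 2 (4.58, 0.0428) or hPPARa male PFOA replicate 3 (2.51, 0.0482). Genotype and count table coincide, so a difference between tables and one between genotypes cannot be told apart.

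The share that each transcript took of the family's summed level, in CPM per kb of exon, showed the exchange of the leading member. In KO females Cyp2b10 held 78.1 to 89.3% on PFOA and 0.571% on vehicle. In KO males it held 97.3 to 98.7% on PFOA and 87.7 to 94.5% of a very small sum on vehicle. Thus the leading member changed with PFOA in KO females and not in KO males. In hPPARa females Cyp2b10 held 57.3 to 65.2% on PFOA and 0.317 to 1.37% on vehicle. In hPPARa males it held 77.6 to 81.6% on PFOA, against 21.0 and 60.3% on vehicle, where the other library was led by Cyp2b9. The summed level was 1080 to 1180 CPM per kb in KO females on PFOA and 180 on vehicle, and 742 to 1000 in KO males on PFOA and 1 to 1.83 on vehicle. With the 4 genes summed to 1 count, the family rose in females as well, by 2.76 ± 0.28 on the log2 scale in KO (adjusted p = 0.00022) and 1.78 ± 0.39 in hPPARa (0.0173). The summed level was 686 to 967 CPM per kb in hPPARa females on PFOA and 173 to 411 on vehicle, and 501 to 622 in hPPARa males on PFOA and 0.527 to 1.32 on vehicle.

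**Figure D3:**
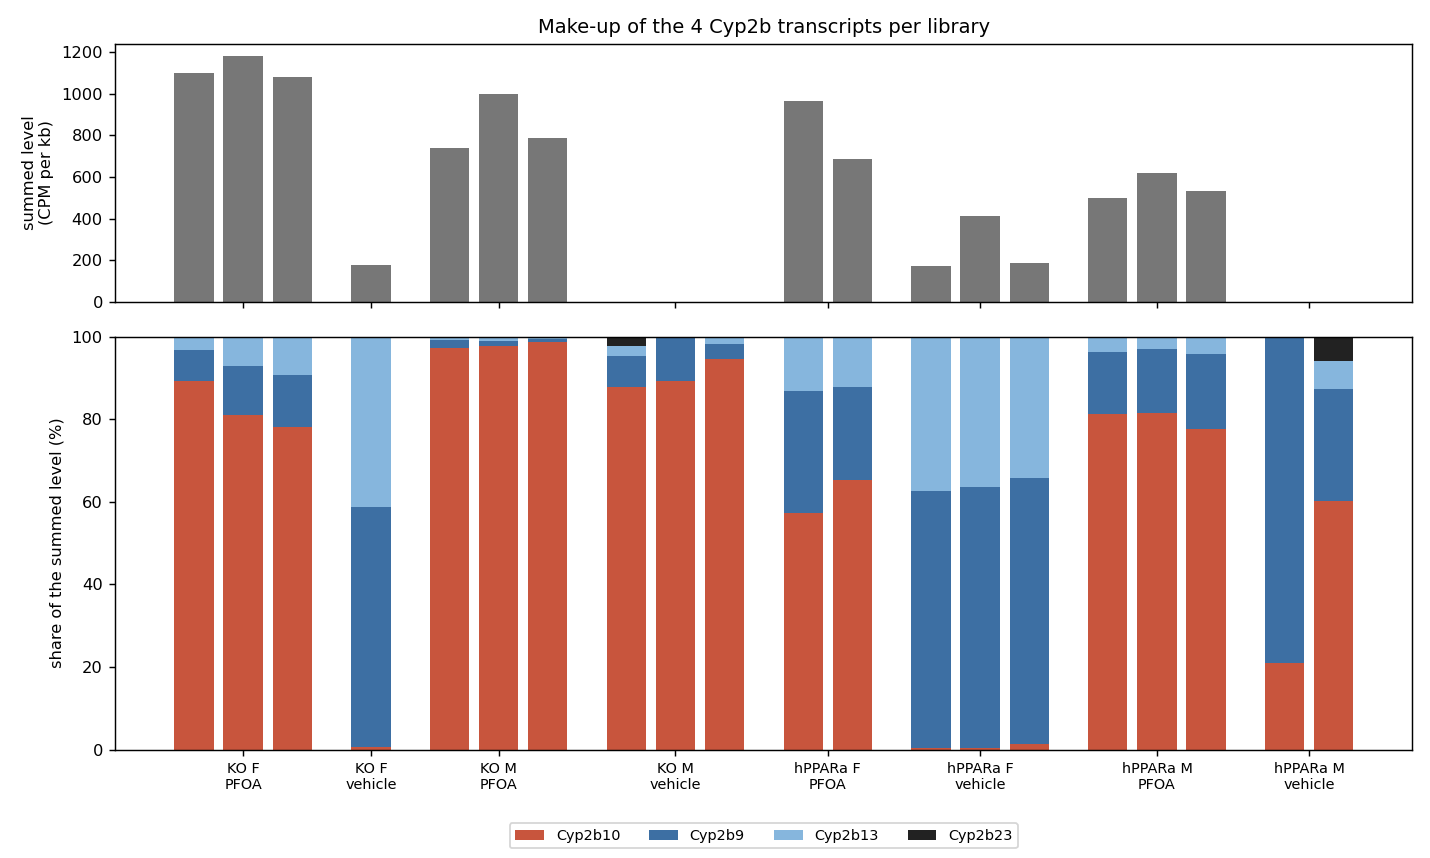
Summed level of the 4 Cyp2b transcripts in CPM per kb of exon (top) and the share of each in that sum (bottom), with 1 bar per library. Cyp2b10 holds over 57% of the sum in every PFOA library, while Cyp2b9 and Cyp2b13 hold nearly all of it in females on vehicle; sums in males on vehicle are at most 1.83 CPM per kb, so their shares rest on few counts.

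The male level of the female-patterned pair on PFOA was set against the female level on vehicle. For Cyp2b9 the male PFOA mean was 11% of the female vehicle level in KO and 55.1% of it in hPPARa. For Cyp2b13 it was 5.55% in KO and 21.0% in hPPARa. The ratio of the pair to each other was not tested and is given as a description. Per kb, Cyp2b13 was 0.226 to 0.498 of Cyp2b9 in KO males and 0.194 to 0.243 in hPPARa males on PFOA, against 0.403 to 0.741 in KO females and 0.443 to 0.527 in hPPARa females on PFOA. The sexes did not overlap in hPPARa. In KO they overlapped only through KO male PFOA replicate 2 (0.498), a library with transcripts of the other sex. KO male PFOA replicates 1 and 3, at 0.28 and 0.226, lay below all KO females on PFOA. The part of other-sex transcripts in the KO male levels was not tested.

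Because Cyp2b10 became so abundant, the counts of the others were also set against it. Cyp2b9 counts were 0.693 to 1.80% of Cyp2b10 counts in KO males on PFOA and 16.4 to 20.8% in hPPARa males. Cyp2b13 counts were 0.156 to 0.628% in KO males and 3.26 to 4.67% in hPPARa males. These ranges did not overlap between the genotypes. Whether any of these counts came from Cyp2b10 reads was not tested.

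Most listed CAR targets outside Cyp2b rose along with Cyp2b10. The list was chosen with earlier results of these data known, and whether CAR or another receptor raised these genes was not tested. Of 29 targets of CAR outside Cyp2b, 26 rose and 0 fell with PFOA in KO (median log2 fold change 1.84, against −0.02 over all genes), and 23 rose and 0 fell in hPPARa (1.48, against −0.01). Within a sex, 19 rose in KO females, 25 in KO males, 22 in hPPARa females and 21 in hPPARa males, with none falling. Over all genes, 13.8% were called in KO and 22.6% in hPPARa, and 5.31%, 9.1%, 18.4% and 8.2% in those 4 groups. Cyp2c55, another drug-metabolising P450, rose by 9.31 ± 0.26 in KO (adjusted p = 2.73e-10) and 7.34 ± 0.33 in hPPARa (6.09e-07). Cyp2c50 rose by 2.15 ± 0.11 in KO (adjusted p = 1.41e-07) and 1.55 ± 0.10 in hPPARa (3.49e-07). Cyp2c65, a further P450 of that family, rose by 8.94 ± 0.40 in hPPARa and Abcc4, an efflux transporter, by 3.09 ± 0.20 (adjusted p = 1e-08 and 3.39e-07). In KO, the carboxylesterase Ces2a rose by 2.92 ± 0.14 and Cyp2c54 by 2.53 ± 0.14 (adjusted p = 9.37e-08 and 2.37e-07). KO minus hPPARa, the PFOA effect was larger for 5 of the 29, where 1.17% of all genes were called. Ces2a, Cyp2c50 and Cyp2c54 were among them (0.99, 0.59 and 0.75, with adjusted p = 0.0343, 0.0343 and 0.0472). Within a sex, that difference was called for 0 of the 29 in females and 2 in males (0.829% and 0.152% of all genes).

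The receptor itself did not rise. Nr1i3 averaged 143 ± 27.1 CPM in KO females on PFOA, against 209 CPM in the vehicle library, and 127 ± 15.7 CPM in KO males on PFOA, against 173 ± 24.7 on vehicle (SD, n = 3 each). It averaged 114 ± 5.94 CPM in hPPARa females on PFOA (SD, n = 2), against 191 ± 33.2 on vehicle (n = 3), and 152 ± 36.4 CPM in hPPARa males on PFOA (n = 3), against 183 ± 52.1 on vehicle (n = 2). Its log2 fold change was −0.47 in KO (adjusted p = 0.0225) and −0.51 in hPPARa (0.0469). Of 14 genes for CAR, its partners and regulators, 2 rose and 2 fell in KO, and 1 rose and 4 fell in hPPARa, where 13.8% and 22.6% of all genes were called; nothing is read from counts this small. Nr1i2, which encodes the related xenobiotic receptor PXR, rose by 0.40 ± 0.11 in KO (adjusted p = 0.0305) and by 0.69 ± 0.09 in hPPARa (0.000171). In KO, Nr0b2, which encodes the corepressor SHP, rose by 1.5 ± 0.23 (adjusted p = 0.00223) and the coactivator gene Ppargc1a fell by 0.68 (0.0358). In hPPARa, Egfr, whose receptor holds CAR inactive, fell by 1.37 (adjusted p = 0.00617), as did Ppargc1a by 0.75 (0.0195) and Foxo1 by 0.42 (0.0215).

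Other female-patterned liver genes were read beside Cyp2b9 and Cyp2b13. Of 18 on the list, which leaves out the Cyp2b family, 11 were higher in females than males on vehicle in KO and 14 in hPPARa, with none lower (medians 6.59 and 6.22; 4.4% and 2.63% of all genes called). With PFOA in males, 0 rose and 0 fell in KO, and 1 rose and 2 fell in hPPARa (medians 0 and 0.69), where 9.1% and 8.2% of all genes were called; with lists of this size these counts are not read as a result. With PFOA in females, 0 rose and 5 fell in KO, and 1 rose and 8 fell in hPPARa (medians −1.39 and −1.77; 5.31% and 18.4% of all genes called). Cux2, a female-specific repressor, averaged 22.4 ± 3.64 CPM in KO females on PFOA (SD, n = 3), against 138 CPM on vehicle. It averaged 3.23 ± 1.30 CPM in hPPARa females on PFOA (SD, n = 2), against 88.1 ± 31.6 on vehicle (n = 3). Those falls were −2.64 (adjusted p = 0.000881) and −4.78 (0.000602), in females in which neither Cyp2b9 nor Cyp2b13 was called. Cyp17a1, a steroid hydroxylase, had a log2 fold change of −1.86 in KO females (adjusted p = 0.088) and fell by 2.96 in hPPARa females (0.000752). Hamp2, a hepcidin, and Cyp3a41a, a female P450, were 1.5 and 9.79 higher in females than males of hPPARa on vehicle (adjusted p = 0.00172 and 0.00279).

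Of 15 male-patterned genes, 10 were lower in females than males on vehicle in KO, and 8 of the 14 tested in hPPARa were. In those comparisons 4.4% and 2.63% of all genes were called. With PFOA in females, 4 rose and 0 fell in KO, and 5 rose and 0 fell in hPPARa, where 5.31% and 18.4% of all genes were called. With PFOA in males, 2 rose and 3 fell in KO, and 1 rose and 0 fell in hPPARa, where 9.1% and 8.2% of all genes were called. Cyp4a12a, a male fatty acid hydroxylase, rose by 3.80 in KO females (adjusted p = 0.00701) and by 8.23 in hPPARa females (0.000164). Cyp2d9, a male steroid hydroxylase, rose by 2.67 and 1.89 (adjusted p = 0.000152 and 0.0011), and C6, a complement component, by 1.37 and 1.58 (0.0169 and 0.0198) in KO and hPPARa females. Gstp1, a glutathione transferase, had values of 0.97 and 0.87 there (adjusted p = 0.112 and 0.0631).

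Of 9 genes of growth hormone and steroid signalling, 0 rose and 2 fell in KO, and 1 rose and 5 fell in hPPARa, where 13.8% and 22.6% of all genes were called; for KO nothing is read from this count. Igf1, the main hepatic product of growth hormone action, fell by 0.77 in KO (adjusted p = 0.00652) and by 1.02 in hPPARa (0.000603). Esr1, the oestrogen receptor gene, fell by 1.34 in KO (adjusted p = 0.0322) and by 1.78 in hPPARa (0.000813). In hPPARa, Socs2, a growth hormone-induced inhibitor of the same pathway, fell by 2.08 (adjusted p = 0.00164) and Ghr, the growth hormone receptor gene, by 0.52 (0.00801). In KO, Ghr had a value of −0.27 (adjusted p = 0.189) and Cish, another such inhibitor, −0.91 (0.112).

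Among 11587 candidate genes, the ones most like each member were ranked by Pearson r of log2(CPM + 0.5) over the 20 libraries, which share the design, so that r is a description only. Cyp2b10 was most like Cyp2c55 (0.977), Cyp3a11 (0.973) and Unc119b (0.968). Cyp2b9 was most like Cyp2c38 (0.955), Cyp2c39 (0.932) and Hao2 (0.930), and Cyp2b13 was most like the same 3 genes, Hao2 (0.955), Cyp2c39 (0.942) and Cyp2c38 (0.937). Cyp2b23 was most like Ypel2 (0.894), Ddit3 (0.893) and Gas7 (0.880). Between members, r was 0.979 for Cyp2b9 and Cyp2b13, 0.752 for Cyp2b10 and Cyp2b23, and 0.512 for Cyp2b9 and Cyp2b10.

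Hao2, a peroxisomal hydroxyacid oxidase that is on the female-patterned list, was high in females and, in hPPARa, rose in males. In hPPARa females it was also higher on PFOA (92.9 to 96.3 CPM) than on vehicle (29.1 to 36.7 CPM), where Cyp2b9 and Cyp2b13 overlapped. It averaged 33.6 ± 20.4 CPM in KO females on PFOA (SD, n = 3), against 20.9 CPM on vehicle, and 2.39 ± 1.83 CPM in KO males on PFOA, against 0.217 ± 0.0918 on vehicle (n = 3 each). It averaged 94.6 ± 2.36 CPM in hPPARa females on PFOA (n = 2), against 33.1 ± 3.79 on vehicle (n = 3), and 14.8 ± 10.2 CPM in hPPARa males on PFOA (n = 3), against 0.228 ± 0.228 on vehicle (n = 2). In males all PFOA libraries were above all vehicle libraries, with a log2 fold change of 3.40 ± 1.07 in KO (adjusted p = 0.104) and 5.96 ± 1.15 in hPPARa (0.0254). Cyp2c38, a P450, averaged 38.4 ± 11.7 CPM in KO males on PFOA, against 7.63 ± 3.18 on vehicle (n = 3 each), and 130 ± 41.7 CPM in hPPARa males on PFOA (n = 3), against 27.2 ± 4.57 on vehicle (n = 2). Its female means lay between 165 and 200 CPM in all 4 groups.

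**Figure D4:**
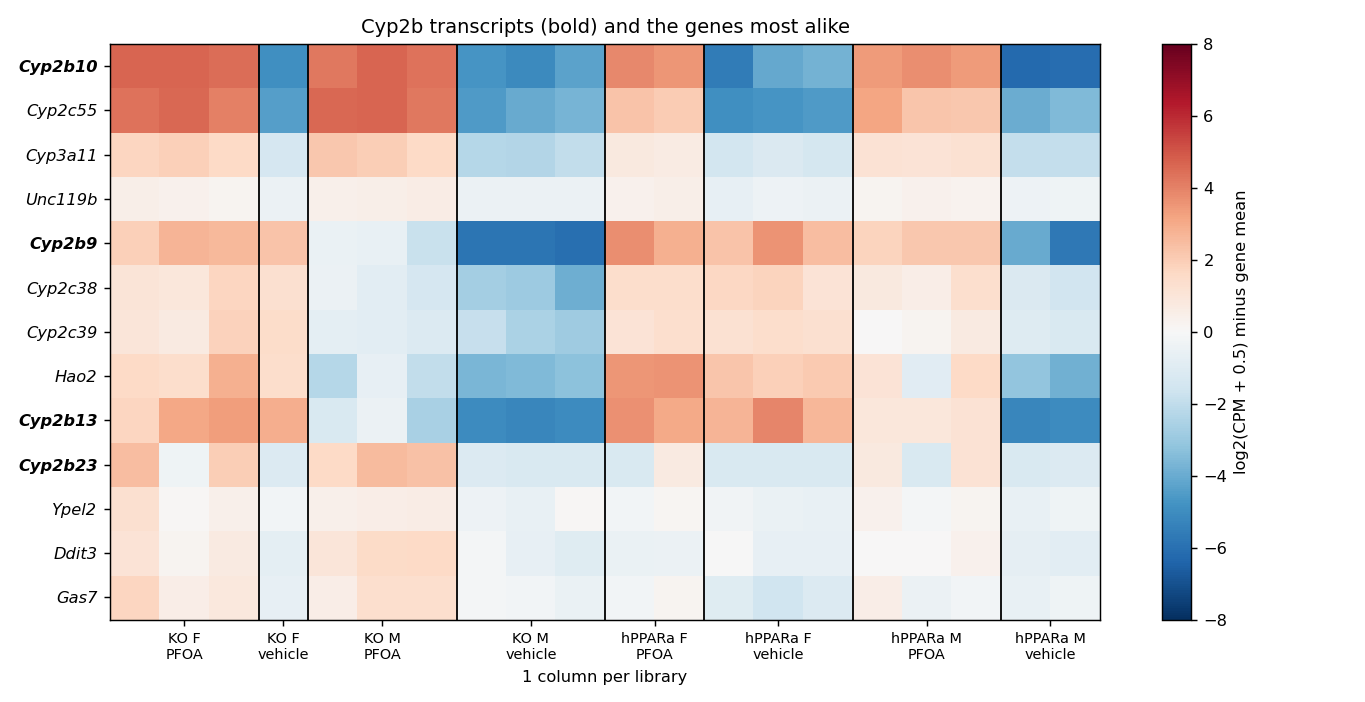
Level of the 4 Cyp2b transcripts (bold) and of the genes most like them in each library, as log2(CPM + 0.5) minus the gene's mean over the 20 libraries, with red above and blue below that mean. Cyp2b10 and Cyp2c55 split by exposure, whereas Cyp2b9, Cyp2b13 and Hao2 are lowest in males on vehicle; Cyp2c38 and Cyp2c39 are lower in males on vehicle than in males on PFOA within each genotype.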

How the data were processed

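RNA-seq counts per gene from bulk liver were used as deposited, in 1 table per genotype. The submitters' processing notes list, in no stated order, STAR 2.5.3 and edgeR 3.36.0, featureCounts 1.6.1, FastQC 0.11.5, R 4.1.0 and also cutadapt 1.15, with the build GRCm39, as what the authors used to make the counts; read length and strand setting are not stated there. From the counts, edgeR 4.0.16 in R 4.3.3 was run with TMM scaling, its expression filter by group and robust quasi-likelihood tests, and p-values were adjusted over all genes with a threshold of 0.05. Additive models (exposure and sex) and models of 4 groups were fitted per genotype, and joint models over 20 libraries. The standard error is the fold change divided by the square root of F. Total counts were 14973673 to 17953860 per library. Libraries of a group differed by more than counting error, with a chi-square per gene of 7.94 to 46.4, lowest for the hPPARa female PFOA pair. Libraries of different groups were not compared in this way. Count ratios have exact 95% intervals. Levels per kb used GENCODE M21 exonic lengths. Percent identities came from global pairwise alignments in Biopython 1.88. The 35 marked promoter positions came from an alignment of the 4 windows with MAFFT 7.526. The fits were tested on simulated data. Alternatives were DESeq2 1.42.0, other scaling, no filter, a replicate block, equal weight for the sexes and leaving out libraries. Members and gene lists were chosen with earlier results of these data known. Genes named are the members, the 3 most like each, and up to 4 per list with the smallest p for PFOA in hPPARa and in KO (sex lists: females against males on vehicle in hPPARa). Fits within 1 sex across genotypes, and the sum of Cyp2b9 and Cyp2b13, were added after the data were seen.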

Additional observations from a re-analysis of the deposited data

Results flagged for a closer look

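The PFOA effect on Cyp2b13 differed between the sexes in hPPARa by an interaction test, at −9.66 on the log2 scale, female minus male (adjusted p = 0.0313 in edgeR, from 2 and 3 females and 3 and 2 males on PFOA and vehicle). The PFOA effect on Cyp2b9 differed between the sexes in KO by the same test, at −6.72 (adjusted p = 0.0346 in edgeR, with a single female vehicle library). In both cases all male PFOA libraries were above all male vehicle libraries, and the female groups overlapped. The Cyp2b13 call was lost in 7 of 14 alternatives (adjusted p up to 0.184) and the Cyp2b9 call in 6 of 13 (up to 0.0909).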

How the results depend on the processing

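No result changed direction past the threshold. Of 937 alternative values for the members, 864 stayed on their side of the threshold, 48 lost it and 25 gained it. Values are log2 fold changes with edgeR's adjusted p, except where DESeq2 is named. With equal weight for the sexes, hPPARa gave 3.83 for Cyp2b9 (0.0013), 4.99 for Cyp2b13 (0.000453) and 5.73 for Cyp2b23 (0.118), and KO gave 3.54 for Cyp2b9 (0.00214). Without the filter, Cyp2b23 was 5.49 in hPPARa (0.084) and 7.42 in KO males (0.0512), and Cyp2b13, female over male on PFOA in hPPARa, was 2.42 (0.0616). The 52 same-number library pairs had deviations from group means that correlated at −0.128 to 0.342 (median 0.0194). The 102 other pairs correlated at −0.261 to 0.151 (median −0.0107). Whether the numbers pair samples cannot be told from this, since deviations within such small groups depend on each other. With a replicate block, Cyp2b23 was 5.45 in hPPARa (0.0653) and Cyp2b9 was −6.71 for PFOA by sex in KO (0.0909). With that block Cyp2b13 was 7.24 in KO males (0.0546), −9.74 for PFOA by sex in hPPARa (0.114) and 2.35 for female over male on PFOA in hPPARa (0.112). DESeq2 gave 5.59 for Cyp2b23 in hPPARa (0.105) and 6.09 in KO females (0.0102). It gave 3.88 for Cyp2b9 (0.00952) and 3.82 for Cyp2b13 (0.0375) in KO, −6.79 for Cyp2b9 by sex in hPPARa (1.26e-07), −7.53 for Cyp2b13 by sex in KO (3.62e-06), 4.12 for Cyp2b13, female over male on PFOA in KO (6.76e-17), and 2.51 for Cyp2b10, female over male on vehicle in hPPARa (0.00436). DESeq2 gave no adjusted p for some member results. Leaving out the 3 KO libraries with the most other-sex transcripts, Cyp2b9 in KO was 6.74 (0.00353). No KO female vehicle library is left then, so this value is that of KO males. Without the same libraries, Cyp2b13 in KO males was 6.65 (0.0921) and Cyp2b23, KO over hPPARa on PFOA, was 2.33 (0.0391).

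Leaving out each library in turn gave these ranges. With PFOA, Cyp2b23 was 4.55 to 6.79 in hPPARa, 5.25 to 6.43 in KO females and 6.93 to 9.43 in KO males. Cyp2b9 was 1.96 to 6.89 and Cyp2b13 1.30 to 7.24 in KO, and Cyp2b13 was −0.18 to 0.69 in hPPARa females and 6.65 to 7.66 in KO males. PFOA by sex was −8.80 to −6.00 for Cyp2b9, −2.76 to −1.93 for Cyp2b10 and −12.06 to −8.77 for Cyp2b13 in hPPARa, and −7.03 to −6.50 for Cyp2b9 in KO. Cases that change a call are named with the results, and their cause was not tested. Female over male was 2.10 to 2.92 for Cyp2b10 on vehicle in hPPARa (0.000293 without female vehicle replicate 1) and 2.08 to 2.69 for Cyp2b13 on PFOA in hPPARa. Cyp2b23 on PFOA, KO over hPPARa, was 1.70 to 4.58. Fits of KO females could not be made without their only vehicle library. Over all genes, the number called for PFOA was 2113 in KO (630 to 2774 over the alternatives) and 3253 in hPPARa (1905 to 3889). It was 814 in KO females (396 to 1490), 1395 in KO males (630 to 2079), 2644 in hPPARa females (796 to 3060) and 1181 in hPPARa males (468 to 1626). PFOA by sex called 37 in KO (8 to 381) and 15 in hPPARa (4 to 323), and PFOA by genotype 185 (39 to 545).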
